A study of Mus musculus with 2 samples.

Results

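The 100 clusters of at least 5 neighbouring distal accessible sites in mouse left cerebral cortex are described here. They hold 542 of 24060 distal sites that were open in both mice, or 2.25%, and 3.22% of the summed height of those sites. Distal sites were those whose midpoint lay over 2 kb from every GENCODE start site on chromosomes 1 to 19 and X. Sites with gaps of 12500 bp or less were joined, and each joined group of 5 or more was kept as a cluster and ranked by its summed mean peak height. The members were therefore chosen by the peak calls and ranked on the peak heights of both libraries, so site number, spacing and height are given as description, without a test. The libraries are DNase-seq of left cerebral cortex from 2 male mice of the hybrid strain B6CASTF1/J aged 36 days, 1 library per mouse, with no treatment and no second group. The mice are called mouse 1 and mouse 2 after their biological replicate numbers. B6CASTF1/J mice carry 1 genome close to the C57BL/6J reference and 1 from a wild-derived strain, and how the second was treated in alignment is not given in the sources used here. With 1 group of 2 mice no comparison between conditions was possible, and all errors are SDs over n = 2.

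DNase I cuts DNA most readily where nucleosomes are displaced, so peaks of cuts mark promoters, enhancers, insulators and other sites held open by bound proteins. A footprint is a short stretch within such a site that is cut less than its surroundings, as where a protein covers it. Distal sites often lie close together around genes with elaborate regulation, and joining nearby sites is a customary first step in describing such regions. Genes of transfer RNA, which RNA polymerase III transcribes from promoter elements inside the gene (the A and B boxes), are also open and often lie in groups.

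The tissue label was compared with promoter peaks, meaning a peak in both mice within 1 kb of a start site. Of 21755 coding genes, 12548 (57.7%) had one. The list of cortical excitatory neuron genes had 17 of 19, the inhibitory neuron list 6 of 19, the astrocyte list 11 of 16, the oligodendrocyte list 9 of 20, the microglia list 4 of 15, and the endothelial and mural list 2 of 14. The list of liver, muscle and blood genes had 4 of 24 and the Hox list 1 of 20. In whole tissue, fewer cells of a type and less open DNA per cell cannot be told apart. The peak lists held 72021 and 59150 peaks in mouse 1 and mouse 2. Heights were whole multiples of 1 step per library (100% of values within 0.02 of a step). If a step is 1 cut and heights are scaled per 1 M cuts, the libraries held 160.1 and 145.4 M cuts. On that reading, and if cuts vary as independent counts, the counting error at the median clustered site was 5.84% and 7.19%. Neither condition was tested.

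The sequences below are from the highest site of 5 clusters, chosen to show the range of sequence among the leading members. Each is 220 bases around the site's midpoint, from GRCm38.p6 (mm10), plus strand. Capitals mark matches to the patterns described further on.
Cluster 1, in Mid1, chrX:169998051-169998270: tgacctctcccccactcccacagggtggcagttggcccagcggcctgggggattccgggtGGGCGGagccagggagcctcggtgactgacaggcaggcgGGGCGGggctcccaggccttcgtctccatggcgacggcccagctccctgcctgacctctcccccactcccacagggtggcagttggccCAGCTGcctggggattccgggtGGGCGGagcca
Cluster 2, between Lrrc74a and Irf2bpl, chr12:86801281-86801500: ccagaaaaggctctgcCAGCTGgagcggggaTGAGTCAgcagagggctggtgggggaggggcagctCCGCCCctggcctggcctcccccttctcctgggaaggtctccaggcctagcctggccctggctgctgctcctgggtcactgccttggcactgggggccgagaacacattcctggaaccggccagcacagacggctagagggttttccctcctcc
Cluster 3, between Nr1d1 and Msl1, chr11:98783401-98783620: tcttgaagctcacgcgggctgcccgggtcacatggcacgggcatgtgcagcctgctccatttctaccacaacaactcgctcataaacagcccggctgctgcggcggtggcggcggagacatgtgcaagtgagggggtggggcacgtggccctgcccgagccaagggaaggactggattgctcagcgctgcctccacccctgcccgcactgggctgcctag
Cluster 5, between Cstad and 1700001O22Rik, chr2:30658521-30658740: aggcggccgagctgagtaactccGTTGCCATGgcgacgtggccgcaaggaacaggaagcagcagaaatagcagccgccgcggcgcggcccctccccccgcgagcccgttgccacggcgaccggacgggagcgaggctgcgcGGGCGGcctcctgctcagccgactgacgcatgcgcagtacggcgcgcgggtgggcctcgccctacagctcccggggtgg
Cluster 10, between Tex44 and Ptma, chr1:86434481-86434700: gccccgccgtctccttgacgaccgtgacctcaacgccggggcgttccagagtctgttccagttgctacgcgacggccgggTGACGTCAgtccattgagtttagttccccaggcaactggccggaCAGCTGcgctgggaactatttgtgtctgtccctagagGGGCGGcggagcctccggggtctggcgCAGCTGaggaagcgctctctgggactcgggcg

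The 7 sites of cluster 4 each lie on a tRNA gene of RefSeq. Of these genes, 6 are shown on their own strand, GRCm38.p6, with the B box (GTTCNANNC) in capitals.
n-TSaga4, tRNA-Ser, plus strand, chr11:69037477-69037558: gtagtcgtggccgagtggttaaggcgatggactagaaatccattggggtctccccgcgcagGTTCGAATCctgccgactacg
n-TTagt8, tRNA-Thr, plus strand, chr11:69037853-69037926: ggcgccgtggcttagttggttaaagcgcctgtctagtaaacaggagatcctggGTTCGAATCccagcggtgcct
n-TPcgg3, tRNA-Pro, plus strand, chr11:69040385-69040456: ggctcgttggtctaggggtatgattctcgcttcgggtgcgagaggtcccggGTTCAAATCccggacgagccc
n-TDgtc9, tRNA-Asp, plus strand, chr11:69040984-69041055: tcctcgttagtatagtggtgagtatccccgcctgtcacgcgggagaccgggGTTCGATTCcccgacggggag
n-TGtcc6, tRNA-Gly, minus strand, chr11:69041278-69041349: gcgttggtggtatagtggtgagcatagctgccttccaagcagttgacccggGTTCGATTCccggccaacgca
n-TWcca7, tRNA-Trp, plus strand, chr11:69041826-69041897: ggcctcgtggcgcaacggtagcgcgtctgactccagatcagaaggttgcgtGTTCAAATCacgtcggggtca

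Most clusters were small. Of the 18732 joined runs, 14826 were single sites, 2924 held 2 sites, 684 held 3 and 198 held 4. The 100 clusters comprised 70 of 5 sites, 22 of 6, 5 of 7, 2 of 8 and 1 of 9. Spans ran from 3160 to 42420 bp with a median of 20230 bp and came to 1.99 Mb in all, and neighbouring sites inside a cluster were a median of 3139.5 bp apart. Summed mean height ran from 3.14 to 27.2 with a median of 9.44. Just inside the threshold, runs of 5 sites had sums of 3.14 to 27.2 (median 8.33). Just outside it, runs of 4 had 3.04 to 18.9 (median 6.23), the highest of them between Klrb1 and Klrb1c at chr6:128753921-128764480. Of the runs of 4, 32 exceeded the median sum of the clusters. Chromosome 2 held 12 clusters, chromosome 11 held 10, chromosome 5 held 9, and X held 1.

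**Figure D1:**
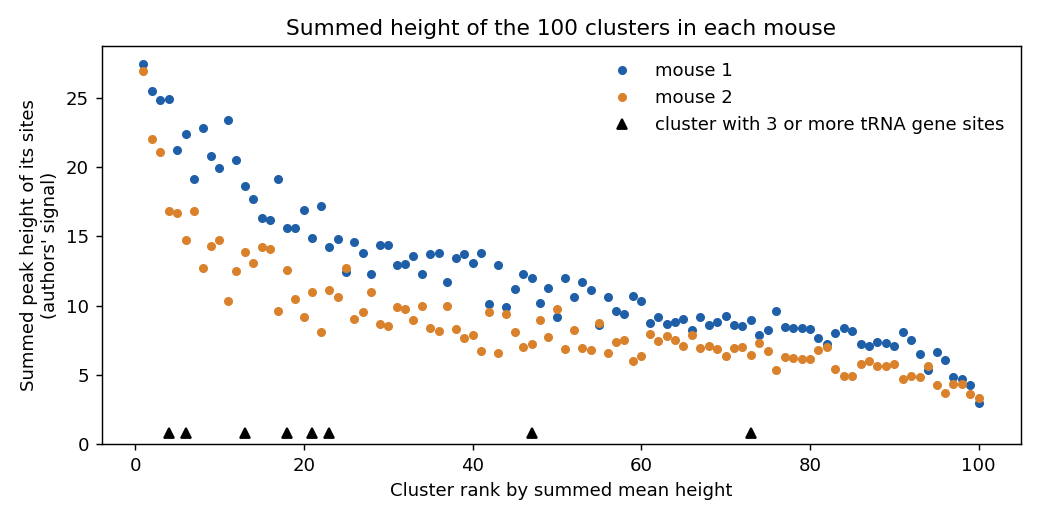
Summed peak height of each of the 100 clusters in mouse 1 (blue) and mouse 2 (orange), against rank by summed mean height; heights are the authors' signal. Triangles mark the 8 clusters with at least 3 sites on tRNA genes, 6 of which are among the highest 25, and mouse 1 is above mouse 2 in 95 of 100.

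Cluster 1 spans chrX:169981541-169998420 inside Mid1, which encodes a ubiquitin ligase of microtubules and crosses the boundary of the pseudoautosomal region in C57BL/6 mice. Its 5 sites had heights of 0.824, 4.38, 6.89, 4.88 and 10.4 in mouse 1 and 0.626, 2.07, 6.85, 3.29 and 14.1 in mouse 2. The sums, 27.4 and 26.9, were the closest to equal of the 5 highest clusters, but the site farthest right was higher in mouse 2 and the other 4 were higher in mouse 1. Of the 36-base words in these sites, 96.7% occur at more than 1 place in the reference. That share was above 50% at all 5 sites, and its part in the heights was not tested.

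The cluster with the most sites, rank 2, lay at chr12:86795961-86825260, with Lrrc74a 32163 bp to its left and Irf2bpl 55440 bp to its right. Irf2bpl encodes a nuclear protein with a RING domain in which human mutations cause a neurological disorder. The heights of its 9 sites in mouse 1 were 2.33, 3.67, 6.41, 1.57, 1.95, 2.13, 1.85, 3.62 and 1.95. In mouse 2 they were 1.67, 3.10, 3.52, 1.25, 1.74, 3.59, 2.52, 3.03 and 1.64. The sixth and seventh sites were higher in mouse 2 and the other 7 in mouse 1. The sums were 25.5 and 22.0 (mean 23.8 ± 2.43 SD), and the highest site held 20.9% of the mean sum. Irf2bpl had a promoter peak of 8.03 and 5.52, and Lrrc74a had none in either mouse.

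Cluster 3 was compact, at chr11:98782201-98789200, 6867 bp from Nr1d1 and 6315 bp from Msl1. Nr1d1 encodes the clock repressor REV-ERB alpha, and Msl1 encodes a scaffold of a histone acetyltransferase complex. Its 6 sites had heights of 2.52, 9.56, 2.45, 1.51, 5.58 and 3.14 in mouse 1. In mouse 2 they were 2.16, 7.14, 2.60, 1.49, 5.26 and 2.43, so that the second site led, followed by the fifth, in both. The Nr1d1 promoter peak, 14.5 and 10.3, was higher than any site of the cluster, and that of Msl1 was 5.53 and 1.51. The stretch of the cluster's highest site printed above held no match to any of the 16 patterns searched.

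Clusters 5 and 11 lay 32687 bp apart on chromosome 2, with Cstad on the left and 1700001O22Rik on the right of both. Cluster 5 had heights of 1.72, 3.74, 1.64, 12.7 and 1.44 in mouse 1 and 1.58, 3.15, 1.02, 9.78 and 1.17 in mouse 2. The fourth site, printed above with an RFX and a GC box match, held 59.2% of the mean sum, the highest share of any cluster. Cluster 11 had 6.75, 4.41, 2.23, 3.40 and 6.62 in mouse 1 and 2.51, 2.06, 2.26, 1.20 and 2.29 in mouse 2. Its sums, 23.4 and 10.3, had a ratio of 2.27, the largest of the 100. There were 6 pairs of clusters within 100 kb of each other, including those of ranks 16 and 60 near Irf2bp2, a transcriptional corepressor related to Irf2bpl.

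Cluster 7, at chr11:69408621-69419160, overlapped Kdm6b, which encodes a demethylase of histone H3 lysine 27. Of its 5 sites, 2 lay in that gene. Its heights were 2.86, 4.17, 2.79, 3.93 and 5.39 in mouse 1 and 2.90, 3.97, 3.36, 2.48 and 4.05 in mouse 2. The sums, 19.1 and 16.8, differed by a ratio of 1.14. All 5 sites lay over 2 kb from GENCODE start sites but within 2 kb of a RefSeq transcript start, and Kdm6b had no promoter peak at its GENCODE start sites in either mouse. Cluster 8, the longest at 42420 bp, overlapped Wnt10a, a secreted Wnt ligand. It had 8 sites, 2 of them in that gene, with sums of 22.8 and 12.7. Cluster 10, printed above with a cyclic AMP response element match, had sums of 19.9 and 14.7, and cluster 9, between Bahcc1 and Actg1, had 20.8 and 14.3. Within 2 kb of a RefSeq start lay 2 of 5 sites of cluster 10 and 1 of 8 sites of cluster 8.

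The remaining clusters of the highest 20 had sums between 15.6 and 20.5 in mouse 1 and between 9.17 and 14.2 in mouse 2, apart from those on tRNA genes. They were cluster 12 (between Ezh2 and Pdia4), 14 (between Krt78 and Krt8), 15 (Ptprs), 16 (between Tarbp1 and Irf2bp2), 17 (Epop), 19 (between Gm9925 and Ska1) and 20 (Meltf). No site of cluster 17 lay in Epop, and 2 of the 5 sites of cluster 20 lay in Meltf. Cluster 12 held 58.5% of its mean sum in 1 site, and 5 of its 6 sites were within 2 kb of a RefSeq start. The same was true of 4 of 7 sites in cluster 15, 3 of 5 in cluster 20 and 1 of 7 in cluster 17. It was true of none in clusters 14, 16 and 19. Cluster 15 ran from inside Ptprs, a receptor phosphatase of synaptic adhesion, into the intergenic space beside Znrf4, with 1 of 7 sites inside the gene. Its last site had heights of 5.56 and 6.50, against 1.26 to 2.88 and 0.942 to 1.58 at the other 6. Other clusters with 6 sites and long spans lay between Hrh2 and Cplx2 (rank 32, 38640 bp) and across an end of Gosr2 (rank 24, 34280 bp), with 1 of its 6 sites inside that gene.

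**Figure D2:**
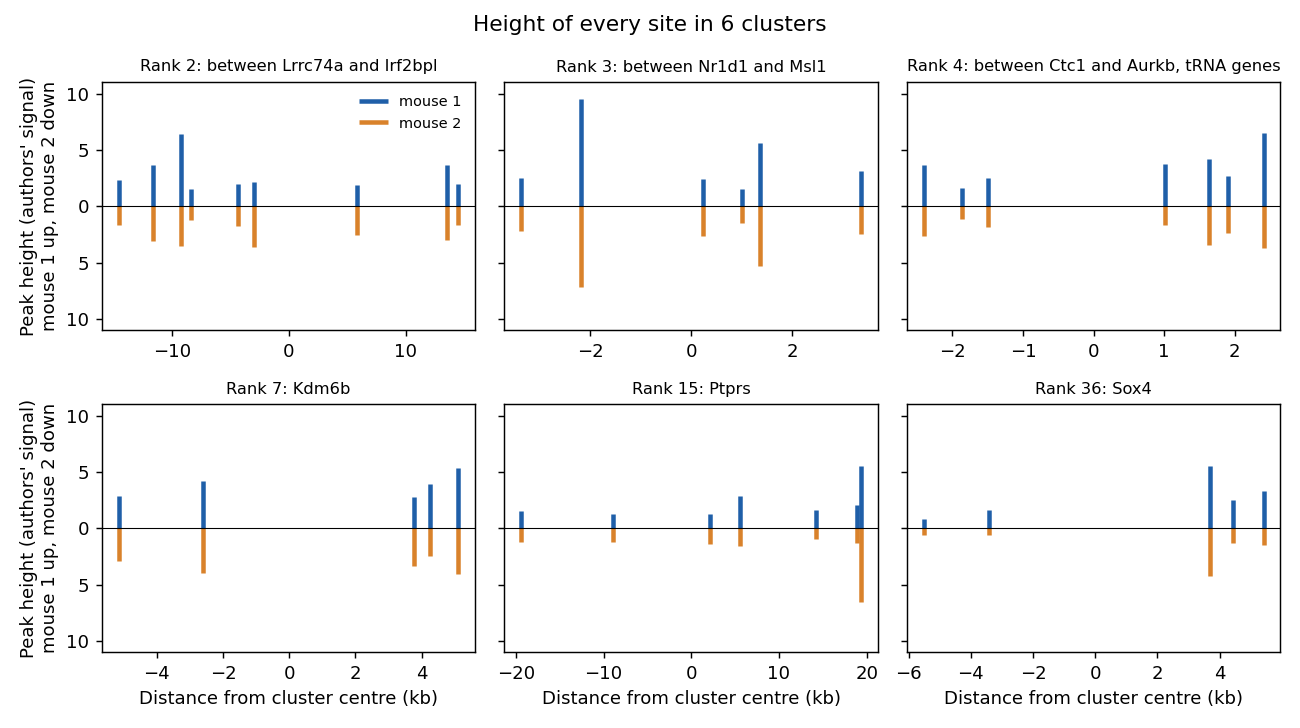
Peak height (the authors' signal) of every site of 6 clusters against distance in kb from the cluster's centre, mouse 1 upward and mouse 2 downward. The highest site in the cluster between Nr1d1 and Msl1 is 9.56 in mouse 1 and 7.14 in mouse 2, and the last site in the Ptprs panel is 5.56 and 6.50.

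Sites on tRNA genes made up 40 of the 542 clustered sites, or 7.38%, against 71 of 23518 other distal sites, or 0.302%, and 0.461% of all distal sites. RefSeq lists 403 tRNA genes, which the GENCODE start sites used here do not cover, and 184 of them overlapped a site open in both mice. There were 50 tRNA genes in the spans of 10 clusters, 42 of them at a member site. In 8 clusters, of ranks 4, 6, 13, 18, 21, 23, 47 and 73, at least 3 sites were on tRNA genes, 38 of their 50 sites in all. Cluster 4, between Ctc1, a telomere maintenance gene, and Aurkb, a mitotic kinase, had heights of 3.62, 1.58, 2.53, 3.74, 4.21, 2.70 and 6.53 in mouse 1. In mouse 2 they were 2.68, 1.11, 1.88, 1.69, 3.43, 2.38 and 3.67, so every site was higher in mouse 1. Cluster 18, on chromosome 3, had all 5 sites on tRNA genes within 3960 bp, with sums of 15.6 and 12.6. Cluster 23, between Olfr1368 and Trim27, held 9 tRNA genes in its span, but only 4 of its 7 sites were on tRNA genes. The sums over all 7 were 14.2 and 11.1.

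The 50 tRNA genes were 71 to 106 bases long and had 35 distinct sequences. The tRNA-Asp sequence of n-TDgtc9, printed above, was shared by 5 genes in 4 clusters, and the tRNA-Gly sequence of n-TGtcc6 by 4 genes in 4 clusters. None of the 40 tRNA sites had over 50% of its 36-base words repeated in the genome. The B box as GTTCNANNC was present on the gene's strand in 49 of the 50, and the narrower GTTCGANTC in 26. On either strand in the site's 300-base window, GTTCNANNC matched 14.4% of clustered and 9.53% of other sites, and GTTCGANTC 3.51% and 0.238%. Away from tRNA genes the wider form matched 8.37% of clustered and 9.31% of other sites, and the narrower form none of the 502 clustered sites and 0.115% of the others.

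Of the 100 clusters, 54 had a span that overlapped the body of a coding gene. A coding start site lay in the span of 20. Counting those 20, 40 lay within 10 kb of one, and 17 lay over 50 kb away. No such shares were computed for other spans of the genome. By midpoint, 37.8% of clustered sites and 45.8% of other distal sites lay in a coding gene body. Overlapped genes numbered 59 of 21755, or 0.271%, and another 189 flanked a cluster. Promoter peaks in both mice were present at 45 of the 59 overlapped genes (76.3%) and 137 of the 189 flanking genes (72.5%), beside 57.7% of all coding genes. Where both mice had a promoter peak, its median height was 4.18 and 2.19 at overlapped genes, 4.99 and 2.68 at flanking genes and 4.79 and 2.69 at all coding genes. Overlapped genes had a median length of 59450 bp, against 17414 bp for all coding genes, and the part of gene length in these counts was not tested. Clustered sites were intergenic in 57.6%, intronic in 38.0% and exonic in 4.43%, and other distal sites in 48.0%, 47.0% and 4.99%. Among genes with many distal sites, Asic2, Csmd1, Rbfox1, Dlg2, Nrxn3 and Camta1 held 22 to 33 each and no clustered site, while Anks1b held 19, of which 5 were in a cluster.

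From 16 gene lists with 299 genes, 5 genes (1.67%) were overlapped by a cluster, beside 0.271% of all coding genes. They were Ptprs and Nrxn2 of 20 synaptic adhesion genes, Sox4 of 22 forebrain transcription factors, Celf4 of 18 neuronal RNA-binding genes and Cnp of 20 oligodendrocyte genes. The share of all coding genes differed with length. It was 0.17% up to 30 kb, 0.272% from 30 to 100 kb, 0.884% from 100 to 300 kb and 0.705% above. The part of gene length in the share of the lists was not tested. Neurod6, Nptx2, Dlg1, Celf5 and Nr1d1 flanked a cluster. No gene was overlapped in the other lists, each of 14 to 24 genes: excitatory neuron, inhibitory neuron, astrocyte, microglia, endothelial and mural, activity-regulated, postsynaptic scaffold and glutamate receptor, voltage-gated channel, circadian clock, housekeeping, Hox, and liver, muscle and blood. At a share of 0.271% over all coding genes, a list of that size would be expected to hold none, so these zeros say nothing about the lists. Nrxn2 encodes a presynaptic adhesion protein, and its cluster, of rank 41, had 5 intronic sites with heights of 3.93, 1.74, 2.75, 2.77 and 2.59 in mouse 1. In mouse 2 they were 1.32, 1.38, 0.881, 1.35 and 1.80, below mouse 1 at every site. Sox4 encodes a transcription factor of neuronal precursors, and its cluster, of rank 36, had heights of 0.831, 1.63, 5.57, 2.47 and 3.30 in mouse 1 and 0.619, 0.619, 4.20, 1.27 and 1.44 in mouse 2. Cnp encodes an enzyme of myelin, and its cluster, of rank 86, had sums of 7.24 and 5.80, with 1 of its 5 sites in Cnp. No list was tested against another.

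Mouse 1 had the higher height at 437 of 542 clustered sites (80.6%) and at 71.9% of other distal sites. The median log2 ratio of mouse 1 to mouse 2 was 0.42 at clustered sites and 0.30 at the others, a fold of 1.34 and 1.23. Median heights were 1.83 and 1.33 at clustered sites and 1.22 and 0.977 at the others, and height also chose the order of the clusters. Dividing by each library's median distal height lowered the clustered value to 0.10. After cluster 11, the largest ratios were at the clusters overlapping Zbtb16 (2.12), Nrxn2 (2.05), Epop (1.98) and Prkag2 (1.96). No member site lay in Epop itself. Zbtb16, a zinc finger transcription factor, had heights of 4.55, 1.43, 2.10, 6.17 and 2.95 in mouse 1 and 1.36, 1.82, 0.770, 2.15 and 2.03 in mouse 2. The smallest ratios were at cluster 100 beside Pramef17 (0.88), Kcnip3 (0.945), cluster 94 between Map1b and Cartpt (0.948), cluster 25 beside Lmx1b (0.973) and Nfic (0.988), the 5 clusters with a higher sum in mouse 2. With 1 library per mouse, the animal and its library cannot be told apart. Sites called in 1 mouse alone also lay in the spans, 120 from mouse 1 and 47 from mouse 2, and 31 clusters had none. Over all merged sites, 25656 were called in mouse 1 alone and 13557 in mouse 2 alone, so mouse 1 had more of them in general.

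Footprints overlapped 94.3% of clustered sites in mouse 1 and 97.2% in mouse 2, and 96.8% and 96.6% of other distal sites. All distal sites together had 96.7% and 96.6%. The clustered mean was 95.8% ± 2.09 and the other 96.7% ± 0.135, a difference of -0.95 percentage points that was smaller than its spread between the mice (SD 2.22). Compared within 4 classes of mean height with equal numbers of distal sites, the difference was -2.57 points. The SD of 2.22 is that of the difference without classes, so it does not measure the spread of this one. The clustered share was the lower in every class in both mice. Footprints per site averaged 3.42 and 3.28 at clustered sites and 2.82 and 2.76 at others, and clustered sites were wider, with a median of 258.5 against 220 bp. In the lowest class, 32 of 43 clustered sites (74.4%) had a footprint in mouse 1 and 38 (88.4%) in mouse 2, against 92.0% and 90.8% of the others. In the second class the clustered shares were 90.4% and 95.7%, against 97.1% and 97.4%, and in the third 94.0% and 97.0%, against 98.7% in both mice. In the highest class the shares were 98.9% and 99.3%, against 99.5% and 99.7%.

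**Figure D3:**
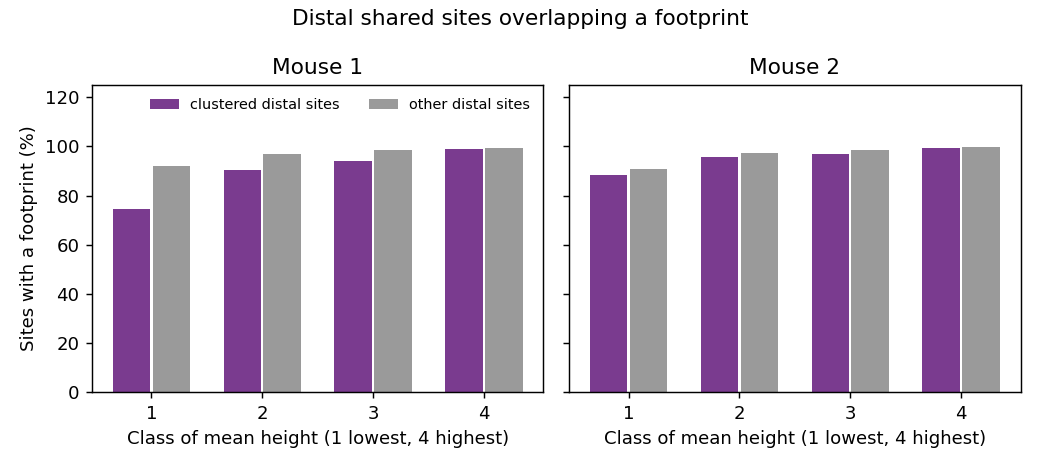
Percent of distal sites open in both mice that overlap a footprint, by class of mean height (1 lowest, 4 highest), for clustered (purple) and other (grey) sites in each mouse. In mouse 1 the lowest class shows 74.4% of 43 clustered sites against 92.0% of the others, and the highest class reaches 98.9% or more in every bar.

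The sequence of the sites was compared in windows of 300 bases around the midpoint, on both strands, with 32619 RefSeq promoters of the same length alongside. Clustered sites had a median GC content of 53.7% against 49.7%, and 2.33 against 1.67 CpG per 100 bases. Among clustered sites, the 40 on tRNA genes had medians of 46.3% GC and 4.33 CpG. The 502 clustered sites away from tRNA genes had 53.7% GC and 2.0 CpG. The GC box GGGCGG was in 19.2% of clustered, 11.9% of other and 35.9% of promoter windows. The ETS pattern CCGGAAG was in 4.06%, 2.12% and 8.92%, the cyclic AMP response element TGACGTCA in 1.85%, 0.595% and 1.80%, and the RFX pattern GTTNCCATG in 5.17%, 3.50% and 1.94%. NFI, named only, was in 1.85%, 0.906% and 0.291%. The CTCF pattern, for the insulator protein and given by name, was in 7.38%, 9.98% and 0.46%, and 30 clusters held a match. AP-1, TGANTCA, was in 65 of the 542 clustered windows, in 17.0% of the others and in 7.85% of promoters, and the homeobox core TAATTA in 3.69%, 5.59% and 5.25%. E-boxes were close: CAGATG in 32.1% and 33.7% of clustered and other windows and CAGCTG in 27.7% and 26.2%. MEF2, by name, had 3.69% and 4.87%, the octamer ATGCAAAT 1.48% and 2.18%, RORE as TAGGTCA 2.03% and 1.73%, and EGR as GCGTGGGCG 0.369% and 0.276%. Base composition moved with these shares, and its part in them was not tested; the windows of CAGATG and CAGCTG and of GC box and EGR can overlap.

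**Figure D4:**
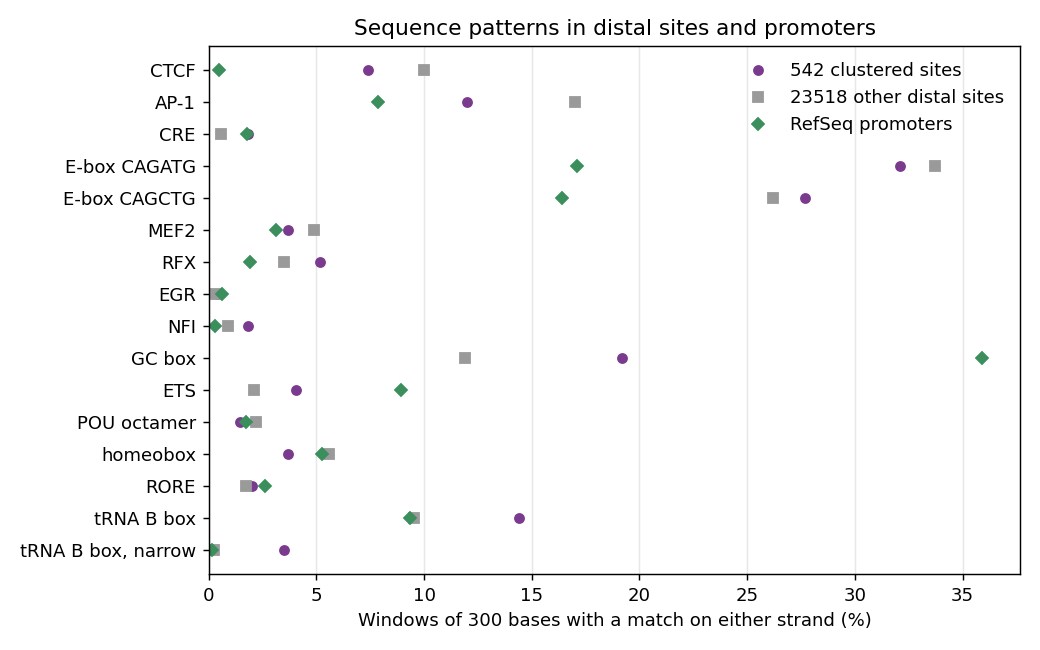
Percent of 300-base windows with a match to each of 16 patterns on either strand, for 542 clustered sites (circles), 23518 other distal sites (squares) and RefSeq promoters (diamonds). The GC box is in 19.2% of clustered and 11.9% of other windows, and CTCF in 7.38% and 9.98%.

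The sites were also placed against transcript starts of RefSeq. Within 2 kb of a RefSeq start lay 96 clustered sites (17.7%) and 6.34% of other distal sites, and without tRNA sites 11.2% and 6.06%. Over 50% of the 36-base words were repeated at 16 clustered sites (2.95%) and at 0.544% of the others. In 3 clusters, of ranks 1, 98 and 100, most sites were of that kind. Chromosome Y was included in this count, so words present on both X and Y are among the repeated ones. RefSeq enhancer records, 1015 in all, fell in 9 clusters. Their share was not computed for other distal sites, so this count cannot show whether clusters hold more or fewer than other sites.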

How the data were processed

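DNase-seq libraries of left cerebral cortex from 2 mice were analysed as 1 group. Heights are the signal column of the deposited peak lists, and the deposited footprints carry a score of 0.01 throughout, so only their positions were used. Per the labels the assembly is mm10, and per the deposited file list each file was made from 1 library without pooling. No source used here names the peak caller, its threshold or the scaling of the signal. Heights were whole multiples of 1 step per library. Depth was inferred from that step, taken as 1 cut with heights scaled per 1 M cuts, which was not tested.

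Peaks of the shorter list of each library were merged where they overlapped or touched, giving 82968 sites, 43755 with a peak in each mouse. Start sites and gene bodies came from GENCODE M21, and tRNA genes, transcript starts, enhancer records, promoters and sequence from RefSeq on GRCm38.p6. Overlaps needed 1 bp. Python 3.11.15 with NumPy 2.4.6, pandas 2.3.3 and matplotlib 3.10.9 was used, and the joining and overlap steps were tested on simulated peaks.

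Members, lists and patterns were chosen with earlier results of these data known. Named clusters were the 20 highest, the 5 with most sites (ties by rank), the 5 longest and the 5 largest and 5 smallest ratios between mice, with genes they overlap or, failing that, flank, and listed genes at the highest 50. Others were named after their values were seen. Of the 16 patterns, the B box was searched in 2 forms: GTTCGANTC first, then GTTCNANNC, after the first result had been seen and to cover more tRNA genes. Both are reported. Alternatives covered the peak list, height, overlap, gap, start-site distance, site minimum and each mouse alone. Annotation and repeat alternatives were added after seeing the data. Of the 7 tRNA genes of cluster 4, the sequence of 1 is not reported here.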

Additional observations from a re-analysis of the deposited data

How the results depend on the processing

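The number of clusters, 100, rests on the joining rules. It was 537 with the longer peak lists, 30 with the higher 50% of peaks, 33 with 50% reciprocal overlap, 22 and 323 with gaps of 5 and 25 kb, 62 at 5 kb from start sites, and 298 and 30 with minimums of 4 and 6 sites. Sites from 1 mouse alone gave 232 to 743. It was within 1.5 times of 100 in the other 5 alternatives, including 91 without sites near tRNA genes, 70 without sites near RefSeq starts and 97 without repeated sites. The last 3 were chosen after seeing the data. The share of distal sites in clusters, 2.25%, ran from 0.49% to 13.5%, and 1 mouse alone gave 3.86% to 13.5%. The share of clusters overlapping a coding gene, 54.0%, was 43.3% with the higher peaks, 42.4% with reciprocal overlap, 40.9% and 65.0% with gaps of 5 and 25 kb, 63.7% and 43.5% at 1 and 5 kb, 44.8% with coding start sites alone, and 56.0% to 65.7% from 1 mouse. The footprint difference, -0.95 percentage points, was 4.22 with the longer lists and -18.5 to -1.22 from 1 mouse alone. It moved by less than the spread between mice (2.22) in 15 of 17 alternatives, among them -2.57 within classes of height. The CTCF difference, -2.60 points, stayed below 0, from -7.64 to -0.876. Without repeated sites the highest summed mean height was 23.8 in place of 27.2. Of the 20 highest clusters, 16 overlapped a cluster when tRNA sites were left out, and 10 when sites near RefSeq starts were. Differences between 2 mice cannot be separated from depth and library quality. The causes of these changes were not tested.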
